A study of Mus musculus with 6 samples.

Results

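The nuclear-encoded subunits of the respiratory chain and of ATP synthase were compared between 2 populations of mouse small-intestinal crypt cells. Members were taken by gene symbol, as the genes of the Nduf, Sdh, Uqcr, Cox4 to Cox8 and Atp5 families, without assembly factors and pseudogenes. This gave 81 of the 23565 genes in the count table: 37 of complex I, 4 of complex II, 8 of complex III, 15 of complex IV and 17 of ATP synthase. Symbols that the annotation calls pseudogenes although their name does not say so (Cox6c2, Ndufa11b, Ndufb4c and Ndufs6b) were left out too, and Cox4i2, Cox7b2, Cox8c and Ndufa4l2 were not analysed here. Cyc1, a catalytic subunit of complex III whose symbol the rule does not match, is described with the electron carriers.

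The respiratory chain sits in the inner mitochondrial membrane. Complexes I and II pass electrons from NADH and succinate to coenzyme Q, complex III passes them on to cytochrome c, and complex IV hands them to oxygen. The proton gradient that complexes I, III and IV build drives ATP synthase. Most subunits are encoded in the nucleus and a few core ones in mitochondrial DNA, so the complexes are assembled from the products of both genomes. Crypt base columnar cells are known for high mitochondrial activity, next to Paneth cells that rely more on glycolysis.

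Cells sorted for tdTomato made up the 3 Hopx-CreER libraries; they came from HopXCreER::Rosa26LSL-tdTomato mice, in which a tamoxifen-inducible Cre at the Hopx locus switches on the red reporter. Cells carrying tdTomato together with eGFP made up the 3 Lgr5-CreER libraries; they came from Lgr5eGFP-IRES-CreER::Rosa26LSL-tdTomato mice, whose Lgr5 allele makes eGFP as well as the Cre. Both groups received 1 mg of tamoxifen and were collected 16 hours later, with 3 mice of each genotype per the series description. Genotype and gate differ together and cannot be told apart. No label ties a column to a mouse, and a common number stands in the names of libraries 2 and 3 of the Lgr5-CreER group, so p-values measure the spread between these libraries, which may be technical in part.

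The libraries held 10839306 to 14570555 counts each. Levels are given as CPM, the count scaled to a common library size with TMM factors, and 3 counts were worth 0.201 to 0.278 CPM. Of 12439 genes tested, 1176 were higher and 410 lower in Hopx-CreER cells at an edgeR adjusted p under 0.05. These counts became 938 and 729 when libraries were scaled by their totals alone, and 1207 and 713 under GC content offsets. Hopx and Lgr5 RNA were both lower in Hopx-CreER cells (log2 fold changes of -0.73 and -1.38, edgeR adjusted p 0.0131 and 0.0147). Defining epithelial genes such as Epcam and Vil1 were present, with a summed level of 19060 to 21210 CPM in Hopx-CreER and 13490 to 14560 CPM in Lgr5-CreER libraries for the list of 10. Immune markers summed to at most 6.68 CPM, and those of stroma, endothelium, nerve and muscle to at most 3.72 CPM. Marker RNA of several epithelial cell types differed between the groups: 9 of 10 Paneth, 9 of 10 goblet, 10 of 10 enteroendocrine, 7 of 9 tested tuft and 10 of 10 enterocyte markers were higher in Hopx-CreER cells, and 11 of 12 Lgr5 stem cell markers lower. The Paneth list summed to 15290 to 33140 CPM against 1701 to 3368 CPM, and the stem cell list to 3569 to 5439 CPM against 11210 to 11700 CPM. The part of these markers' cell types in the results below was not tested, and in bulk RNA fewer cells of a type and less RNA per cell cannot be told apart.

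Nuclear-encoded transcripts of the respiratory chain and ATP synthase were modestly and broadly more abundant in Hopx-CreER cells. Of the 81 members, 79 passed the filter on low counts. The log2 fold change, with Lgr5-CreER as the base, was positive for 76 of the 79 (96.2%), against 47.2% of all genes tested. Its median was 0.32, a 1.25-fold difference, against -0.033 over all genes tested, and the quartiles were 0.24 and 0.40. By the edgeR test, 17 members (21.5%) were higher and 0 were lower in Hopx-CreER cells, while 9.45% of all genes tested were higher and 3.3% lower. At an unadjusted p under 0.05 the counts were 47 higher and 1 lower, against 16.3% and 11.1% of all genes. All 3 Hopx-CreER libraries lay above all 3 Lgr5-CreER libraries for 42 members (53.2%), against 18.8% of all genes tested.

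Summed over all members, the level was 39610, 41270 and 44910 CPM in Hopx-CreER libraries 1, 2 and 3, while the Lgr5-CreER libraries stood at 34840, 31230 and 34430 CPM. The groups did not overlap, and the means differed 1.25-fold (41930 ± 2708 against 33500 ± 1978 CPM, SD, n = 3). On this scale the sum over all genes tested was itself 1.08-fold higher in Hopx-CreER libraries (means of 1041000 against 961000 CPM). As a share of raw counts, the members took 3.83% to 4.23% of Hopx-CreER and 3.34% to 3.57% of Lgr5-CreER libraries. The shift was of similar size in all complexes, whose differences from each other were not tested. The median log2 fold change was 0.32 for complex I, 0.35 for complex II, 0.33 for complex III, 0.32 for complex IV and 0.32 for ATP synthase. Hopx-CreER library 1 was the lowest of its group in each of them, and for complex I its median level stood 0.14 above the Lgr5-CreER mean on the log2 scale, close to the 0.12 of Lgr5-CreER library 1.

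**Figure D1:**
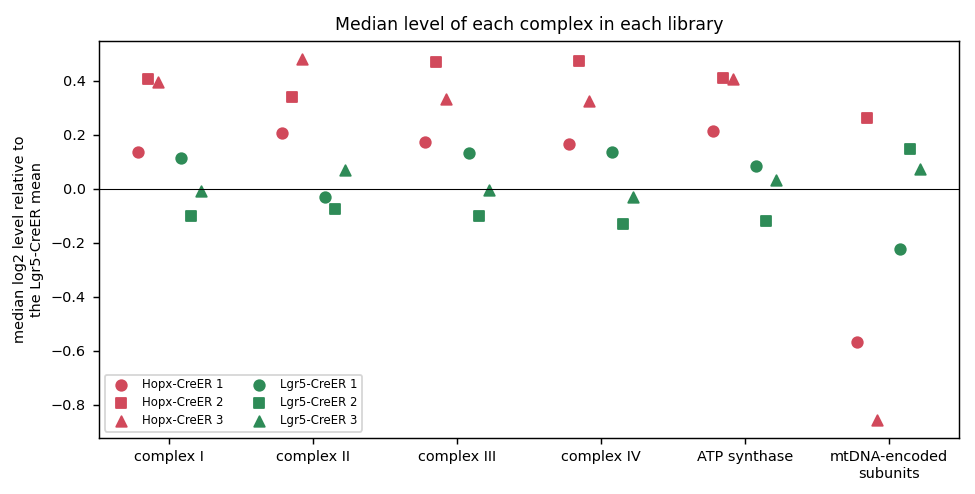
Median log2 level of the tested members of each complex in each library, relative to the mean of the Lgr5-CreER libraries; the last column holds the mtDNA-encoded subunits, and red and green points are Hopx-CreER and Lgr5-CreER libraries. The nuclear-encoded complexes stand at 0.14 to 0.48 in the Hopx-CreER libraries and at -0.13 to 0.14 in the Lgr5-CreER libraries.

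Many calls on single members lay close to the threshold. Of the 17 calls, 7 had an adjusted p between 0.04 and 0.05, and another 13 members lay between 0.05 and 0.1. Cox7a2 at 0.0491 was just inside the threshold and Ndufv1 at 0.0507 just outside it. The count was 22 without Hopx-CreER library 1, 5 without library 2 and 9 without library 3, and it was 5, 2 and 3 without Lgr5-CreER libraries 1, 2 and 3. Treating the pair of Lgr5-CreER columns with a common number as 1 library left 2 (2.53%, against 5.12% of all genes tested). The members' share was also below that of all genes without Hopx-CreER library 2 (6.33% against 7.1%). The same held without Lgr5-CreER library 2 (2.53% against 4.72%) and library 3 (3.8% against 5.68%). It was above without Hopx-CreER libraries 1 (27.8% against 8.15%) and 3 (11.4% against 9.89%) and Lgr5-CreER library 1 (6.33% against 5.87%). Apart from Uqcrfs1 and Cox7a1, which were called in all 19 alternatives, each of the 17 was called in 6 to 14 of them. With library totals alone, 6 members (7.59%) were called, against 7.54% of all genes tested, and the median over all genes moved from -0.033 to -0.15 while that of the members was 0.21. Relative to all genes, the members' median was thus 0.354 higher in the main fit and 0.355 higher with library totals. Scaling factors shift all genes by nearly the same amount, so this gap could hardly move and is no test of the scaling. The members kept a positive median in every alternative run, from 0.16 to 0.42.

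**Figure D2:**
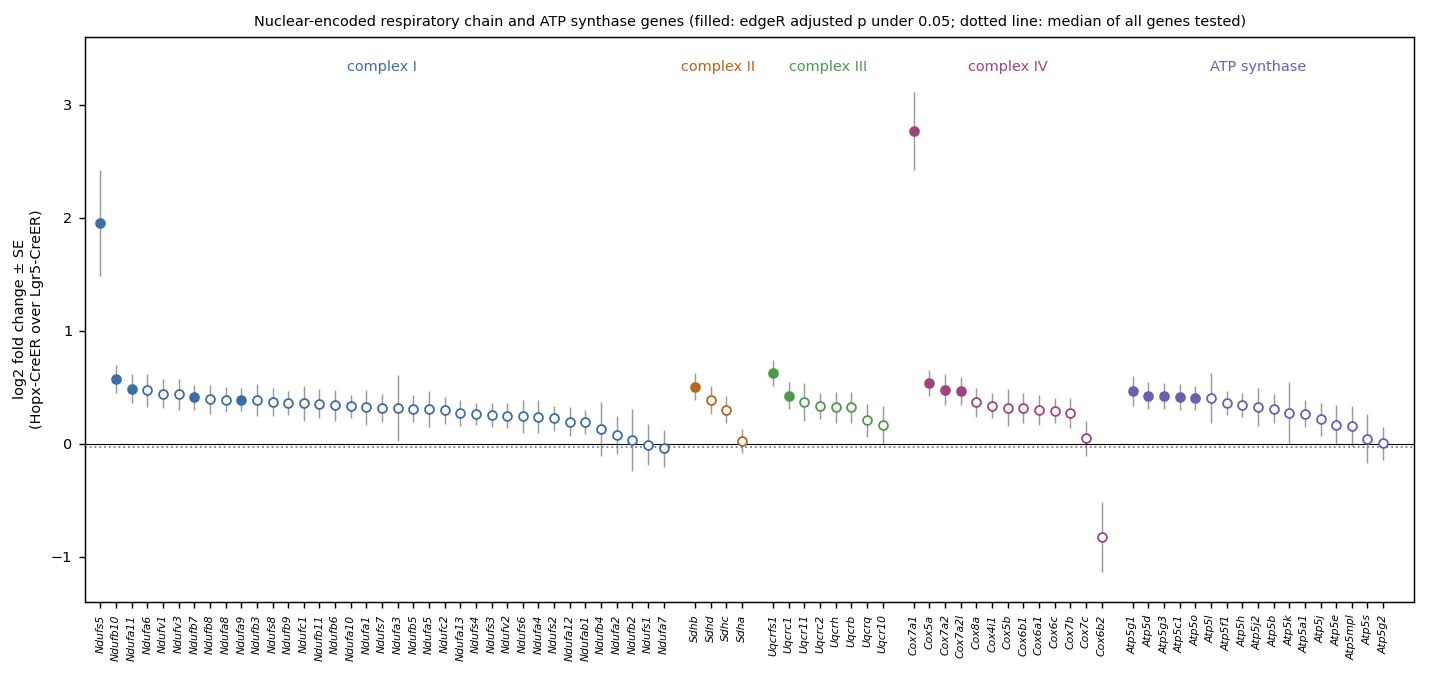
Log2 fold change with its SE for each of the 79 tested members, ordered within complexes; filled points passed the edgeR test, and the dotted line is the median of all genes tested (-0.033). All but 3 points lie above 0, most of them near 0.3, with Cox7a1 at 2.76 and Ndufs5 at 1.95 standing apart.

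Complex I, the NADH dehydrogenase, has a core that carries the flavin and iron-sulphur clusters and a larger set of accessory subunits. None of the 7 nuclear-encoded core subunits passed the test, against 9.45% of all genes tested that were higher, and their median was 0.25. At an unadjusted p under 0.05, 4 of the 7 were higher, against 16.3% of all genes. All Hopx-CreER libraries lay above all Lgr5-CreER libraries for 5 of the 7 (71.4%), against 18.8% of all genes tested. Ndufv1, which binds the flavin and was named after its values were seen, had 0.44 ± 0.13 (SE). Ndufs1, the largest core subunit and also named after its values were seen, was 306, 262.7 and 174.4 CPM in Hopx-CreER against 235.4, 251.3 and 261.6 CPM in Lgr5-CreER libraries. Its log2 fold change was -0.0096 ± 0.18 and the groups overlapped. Its locus overlaps that of Eef1b2, an abundant translation factor gene (mean 262.1 CPM), on the opposite strand. Reads from bases that both genes share cannot be told apart in libraries that do not mark the strand. Overlaps here are of whole loci, and whether exons overlap was not examined. Of the 30 accessory subunits, 5 (16.7%) were higher (Ndufb10, Ndufs5, Ndufa11, Ndufa9 and Ndufb7), with a median over all 30 of 0.32. For 15 of the 30 (50%), all Hopx-CreER libraries lay above all Lgr5-CreER libraries. The difference between core and accessory subunits was not tested.

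Ndufb10, a subunit of the membrane arm, stood at 210.4, 255.9 and 264.3 CPM in Hopx-CreER and at 177.4, 147.2 and 167.4 CPM in Lgr5-CreER libraries. The groups did not overlap, and the log2 fold change was 0.57 ± 0.13 (SE), which passed the edgeR test at an adjusted p of 0.018. Ndufa9, which helps join the arms of the complex, was 508.1, 476.6 and 534.5 CPM against 384.3, 358.3 and 417.3 CPM (log2 fold change 0.39 ± 0.10, edgeR adjusted p 0.0403). Its call was lost whenever any 1 library was left out. Ndufa11, a further membrane arm subunit whose locus overlaps Vmac on the opposite strand (mean 26.8 CPM), rose by 0.48 ± 0.13 (edgeR adjusted p 0.038). Ndufb7, also of the membrane arm, rose by 0.41 ± 0.11 (edgeR adjusted p 0.0449). Ndufa4, listed here by its symbol although it is now counted as a subunit of complex IV, had the highest level per kilobase of transcript (913.3 against 773.9 CPM per kilobase) and did not pass (0.24 ± 0.15, edgeR adjusted p 0.339).

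Ndufs5, an accessory subunit in the intermembrane space, showed the largest difference in complex I. Its value depended on whether the counts of a pseudogene were added. Ndufs5 lies on the minus strand of chromosome 4 (chr4:123712710-123718202, GRCm38), and the annotation holds an intronless copy, BC002163, on the plus strand of chromosome 16 (chr16:42955631-42955949). Over the 319 bases of BC002163, 317 are identical to the coding sequence of Ndufs5. The first 120 coding bases are shown, 5′ to 3′ from the start codon, because they hold both differences, which are in capitals (T81C and A105G, the base of Ndufs5 first, positions counted from the A of the start codon).
Ndufs5: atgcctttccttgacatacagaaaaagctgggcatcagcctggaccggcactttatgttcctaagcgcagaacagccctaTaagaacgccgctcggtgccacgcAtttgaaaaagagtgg
BC002163: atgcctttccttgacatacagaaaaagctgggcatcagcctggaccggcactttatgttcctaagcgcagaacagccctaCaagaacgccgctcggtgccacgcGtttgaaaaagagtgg

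Ndufs5 itself was 44.1, 61.8 and 50.7 CPM in Hopx-CreER and 3.88, 17.7 and 19.1 CPM in Lgr5-CreER libraries (log2 fold change 1.95 ± 0.47, edgeR adjusted p 0.0257). BC002163 ran the other way, at 3.09, 4.06 and 3.71 CPM in Hopx-CreER and 42.6, 19.4 and 18.6 CPM in Lgr5-CreER libraries. The sum of the pair was 47.2, 65.9 and 54.5 CPM against 46.5, 37.1 and 37.6 CPM. BC002163 thus took 6.16% to 6.81% of the pair's counts in Hopx-CreER libraries and 91.6%, 52.3% and 49.4% in Lgr5-CreER libraries 1, 2 and 3. Why the split differed between libraries was not tested. With the copy added, the log2 fold change of Ndufs5 was 0.47 and its edgeR adjusted p 0.111, and 16 members were then called. In the main fit, complex I had a median of 0.32 and an upper quartile of 0.39, and Ndufb10 had 0.57. In all, 13 tested members have a near-identical copy in the table. The copies' share was at most 3.4% of the pair's counts for each of the others except Atp5l, a membrane subunit of ATP synthase, where it was 15.1% to 23.8%.

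**Figure D3:**
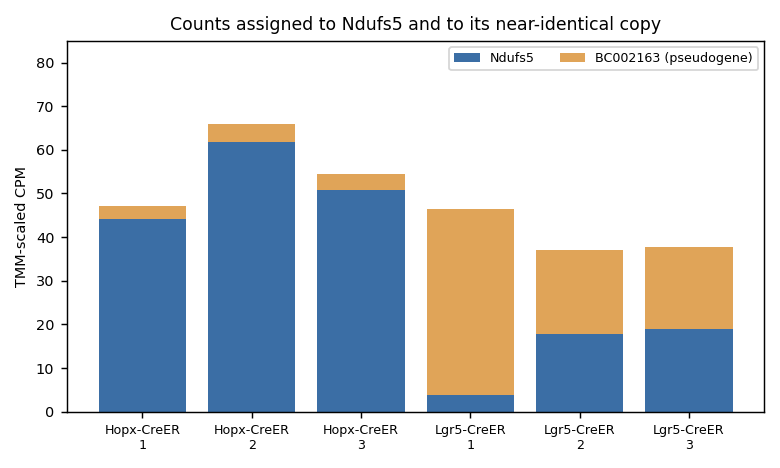
TMM-scaled CPM assigned to Ndufs5 (blue) and to its pseudogene BC002163 (orange), stacked for each library. Nearly all of the 47.2 to 65.9 CPM of the Hopx-CreER libraries is assigned to Ndufs5, while in the Lgr5-CreER libraries 18.6 to 42.6 CPM is assigned to the pseudogene.

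Complex II, succinate dehydrogenase, is made of a flavoprotein (Sdha), an iron-sulphur protein (Sdhb) and a pair of membrane anchors (Sdhc and Sdhd), all nuclear-encoded. Sdhb rose while Sdha showed nearly equal levels. Sdhb was 820.2, 857.1 and 1037 CPM in Hopx-CreER and 621.4, 613.4 and 678.8 CPM in Lgr5-CreER libraries, without overlap (log2 fold change 0.50 ± 0.12, SE; edgeR adjusted p 0.0243). The call of Sdhb held in 3 of the 6 fits without 1 library. It was lost without any 1 of the Lgr5-CreER libraries, and with the columns of a common number summed. Sdha was 1814, 1642 and 1580 CPM against 1605, 1644 and 1715 CPM, and the groups overlapped. Its log2 fold change was 0.021 ± 0.10 (edgeR adjusted p 0.913), and the sign turned with library totals alone (-0.0936). The difference between Sdha and Sdhb was not tested. The anchors lay between them, Sdhd at 0.39 ± 0.12 (edgeR adjusted p 0.0736) and Sdhc at 0.30 ± 0.12 (0.136).

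Complex III, the cytochrome bc1 complex, held the subunit with the smallest p outside the isoform Cox7a1. Uqcrfs1, the Rieske iron-sulphur protein that takes electrons from coenzyme Q, was 666.3, 659.7 and 819.7 CPM in Hopx-CreER and 449.4, 454.1 and 487.1 CPM in Lgr5-CreER libraries. All Hopx-CreER values lay above all Lgr5-CreER values, by 0.63 ± 0.12 (SE, log2; edgeR adjusted p 0.00886). Uqcrc1, a core protein of the matrix side with the highest level per kilobase in this complex (1532 against 1141 CPM per kilobase), rose by 0.43 ± 0.12 (edgeR adjusted p 0.0467). The remaining 6 did not pass, with values down to 0.16 ± 0.17 for Uqcr10, a small subunit named after its values were seen.

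Complex IV, cytochrome c oxidase, surrounds its mtDNA-encoded core with nuclear-encoded subunits, several of which exist in tissue-specific isoforms. Among the ubiquitous subunits, Cox5a rose by 0.53 ± 0.12 (SE, log2; edgeR adjusted p 0.017), from 144.8, 118.6 and 132.8 CPM in Lgr5-CreER to 175.9, 197.8 and 199.8 CPM in Hopx-CreER libraries, without overlap. Cox7a2l, which links complexes III and IV into supercomplexes, rose by 0.46 ± 0.12 (edgeR adjusted p 0.0376), and Cox7a2 by 0.48 ± 0.14 (edgeR adjusted p 0.0491). Cox4i1, with the highest level per kilobase in the complex, had 0.34 ± 0.11 (edgeR adjusted p 0.083). Its locus overlaps that of Emc8 on the opposite strand (mean 89.8 CPM). Cox6a1, Cox6b1 and Cox8a lay between 0.30 and 0.37 and did not pass. Cox7c, named after its values were seen, was nearly level at 0.048 ± 0.16.

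The muscle isoform Cox7a1, made chiefly in heart, skeletal muscle and brown fat, gave the largest difference of all members. It was 12.8, 18.1 and 21.8 CPM in Hopx-CreER libraries (170, 214 and 235 counts) and 3.21, 1.56 and 2.89 CPM in Lgr5-CreER libraries (48, 18 and 42 counts). All Hopx-CreER libraries lay well above all Lgr5-CreER libraries. Cox7a1 was 6.8-fold higher, a log2 fold change of 2.76 ± 0.35 (SE; edgeR adjusted p 0.00153). No other gene of the table overlaps its locus and no near-identical copy was found. Per kilobase of transcript, Cox7a1 made up 8.3%, 8.55% and 10.8% of the sum of Cox7a1 and Cox7a2 in Hopx-CreER libraries and 2.32%, 1.3% and 2.42% in Lgr5-CreER libraries, so that Cox7a2 remained the main isoform in both. Other muscle isoforms were not detectable at a level that allows a comparison: Cox6a2 had 1, 1 and 3 counts in Hopx-CreER and 0 in each Lgr5-CreER library, and Cox8b had 0 counts in all 6. Cox6b2, the testis isoform, was the only member below 0 beyond its SE, at 2.19, 2.71 and 2.6 CPM against 4.02, 4.75 and 4.54 CPM (log2 fold change -0.83 ± 0.31, edgeR adjusted p 0.118).

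ATP synthase couples a rotor in the membrane to the catalytic F1 head. In the head, Atp5c1, the central stalk subunit gamma, and Atp5d, subunit delta, were called higher, at log2 fold changes of 0.41 ± 0.12 (SE; edgeR adjusted p 0.0467) and 0.42 ± 0.12 (0.047). Atp5b, the catalytic subunit beta and the most abundant member per kilobase, was 7297, 6390 and 8069 CPM in Hopx-CreER against 5884, 5410 and 6266 CPM in Lgr5-CreER libraries. The groups did not overlap, but its log2 fold change of 0.31 ± 0.13 did not pass (edgeR adjusted p 0.152). In the peripheral stalk, which holds the head still, Atp5o rose by 0.40 ± 0.11 (edgeR adjusted p 0.0376), and its 3 partners Atp5f1, Atp5h and Atp5j did not pass. None of the 4 small membrane subunits passed, nor did Atp5s, a coupling factor (0.042 ± 0.22). The 5 calls in this complex, c-ring included, were 0 with library totals alone, with upper quartile factors and at a threshold of 0.01. They were also 0 without Hopx-CreER library 2, without any 1 of the Lgr5-CreER libraries, and with the columns of a common number summed. With transcript length offsets, and without Hopx-CreER library 3, 1 call was left.

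The c-ring of the rotor is built from a single protein that the genes Atp5g1, Atp5g2 and Atp5g3 encode with different import sequences. Of these, Atp5g3 was 1048, 1204 and 1220 CPM in Hopx-CreER and 923.6, 787.1 and 882.2 CPM in Lgr5-CreER libraries, without overlap (log2 fold change 0.42 ± 0.11, edgeR adjusted p 0.0399). Atp5g1 rose by 0.46 ± 0.13 (edgeR adjusted p 0.0483). Atp5g2 was 59.5, 60.1 and 75.6 CPM against 65.5, 57.8 and 71.3 CPM, with overlap, a log2 fold change of 0.0041 ± 0.15 (edgeR adjusted p 0.988) and a sign that turned with library totals alone (-0.11). Per kilobase, Atp5g2 made up 4.39% to 5.17% of the family in Hopx-CreER libraries and 6.13% to 7.02% in Lgr5-CreER libraries.

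**Figure D4:**
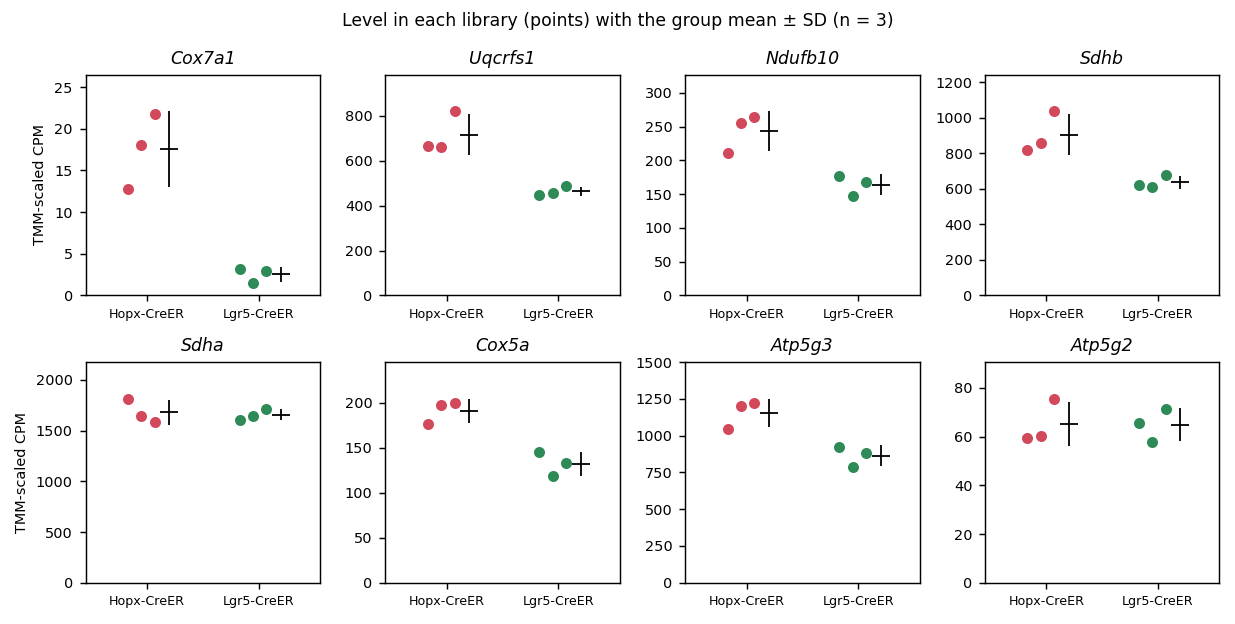
TMM-scaled CPM of 8 members in each library, with the mean and SD of each group (n = 3) beside the points and axes from 0. Cox7a1, Uqcrfs1, Ndufb10, Sdhb, Cox5a and Atp5g3 have all Hopx-CreER points above all Lgr5-CreER points, while Sdha and Atp5g2 overlap.

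Members varied between libraries of a group with the length of their transcripts. Of the 52 tested members with a transcript under 1000 bases, 35 were highest in library 2 and 17 in library 3 of the Hopx-CreER group, and 45 were highest in library 1 of the Lgr5-CreER group. Of the 27 longer ones, 19 were highest in Hopx-CreER library 3 and 18 in Lgr5-CreER library 3. The short members' median level against the mean of all 6 libraries was -0.036 in Hopx-CreER library 1 and -0.013 in Lgr5-CreER library 1, so those libraries were nearly level, while the long members stood at 0.11 and -0.12. Respiratory chain transcripts are short, with a median of 732 bases against 2596 over all genes tested. The 884 protein-coding genes tested with transcripts under 1000 bases had a median log2 fold change of 0.15 and 14.6% of them were higher, against 21.2% of the short members. With offsets that remove the trend with transcript length in each library, the members' median was 0.16, and 6 members (7.59%) were higher against 9.5% of all genes tested. Among the members themselves, the log2 fold change hardly followed length (Spearman rho 0.065 across 79 genes that share the same libraries) and followed GC content weakly (rho 0.22).

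Other genes of oxidative metabolism were taken by list, and differences between lists were not tested. The log2 fold change was positive for 0 of the 8 mtDNA-encoded subunits analysed here and ranged from -0.48 to -0.13. Of these subunits, 0 passed the edgeR test and 0 had an unadjusted p under 0.05, and their median was -0.35. Their summed level was 2339, 3351 and 1676 CPM in Hopx-CreER and 2331, 2946 and 3181 CPM in Lgr5-CreER libraries, so the groups overlapped and Hopx-CreER library 2 stood above every Lgr5-CreER library. The one with the smallest p, mt-Nd1, a complex I core subunit, had -0.48 ± 0.25 (SE, log2; edgeR adjusted p 0.242). The difference between the nuclear and the mitochondrial subunits was not tested.

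Among the electron carriers next to the complexes, the cytochromes were higher in Hopx-CreER cells. Cycs, cytochrome c, averaged 307.6 ± 34.6 CPM in Hopx-CreER and 198.1 ± 13.3 CPM in Lgr5-CreER libraries (SD, n = 3), a log2 fold change of 0.63 ± 0.12 (SE; edgeR adjusted p 0.00851), and Cyc1, cytochrome c1 of complex III, rose by 0.49 ± 0.13 (edgeR adjusted p 0.0363). Of the 20 electron carrier and coenzyme Q genes, 2 (10%) were higher and 0 lower, near the 9.45% of all genes tested, with a median of 0.19. Of 18 genes of pyruvate dehydrogenase and the TCA cycle, 3 (16.7%) were higher and 0 lower, with a median of 0.22. They were Mdh2, malate dehydrogenase (0.79 ± 0.15, edgeR adjusted p 0.00873), Suclg1, a subunit of succinyl-CoA ligase (0.49 ± 0.11, 0.0215), and Ogdh, of the oxoglutarate dehydrogenase complex (0.48 ± 0.12, 0.0307). Among 7 inner membrane carriers and porins, the porin Vdac2 rose by 0.37 ± 0.10 (edgeR adjusted p 0.0451), and the ADP/ATP carrier Slc25a4 was lower, by -0.50 ± 0.14 (0.0449). The more abundant ADP/ATP carrier, Slc25a5, had 0.37 ± 0.12 (edgeR adjusted p 0.0866).

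Few genes that build the complexes passed the test, and a few regulators passed, in both directions. Over all genes tested, 9.45% were higher and 3.3% lower. Of 43 tested assembly factors, 1 (2.33%) was higher and 0 lower, with a median of 0.097. The called one was Cox18, which inserts a core subunit of complex IV into the membrane (0.62 ± 0.15, SE, log2; edgeR adjusted p 0.0282). Of 17 genes of protein import and cristae, 0 passed the edgeR test in either direction (2 higher and 1 lower at an unadjusted p under 0.05), with a median of 0.00079. Of 16 regulators of mitochondrial biogenesis and mtDNA expression, 1 (6.25%) was higher and 2 lower, with a median of -0.14. Esrra, a nuclear receptor that acts on genes of oxidative phosphorylation, was 106 ± 19 against 67.3 ± 7.56 CPM (SD, n = 3), higher by 0.66 ± 0.16 (edgeR adjusted p 0.0247). The related receptor Esrrg was 8.24 ± 1.66 against 18.1 ± 5.09 CPM, lower by -1.14 ± 0.28 (edgeR adjusted p 0.0267). Pprc1, a coactivator of the PGC-1 family, was 107.9 ± 1.98 against 173.1 ± 9.85 CPM, lower by -0.68 ± 0.10 (edgeR adjusted p 0.00343).

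**Figure D5:**
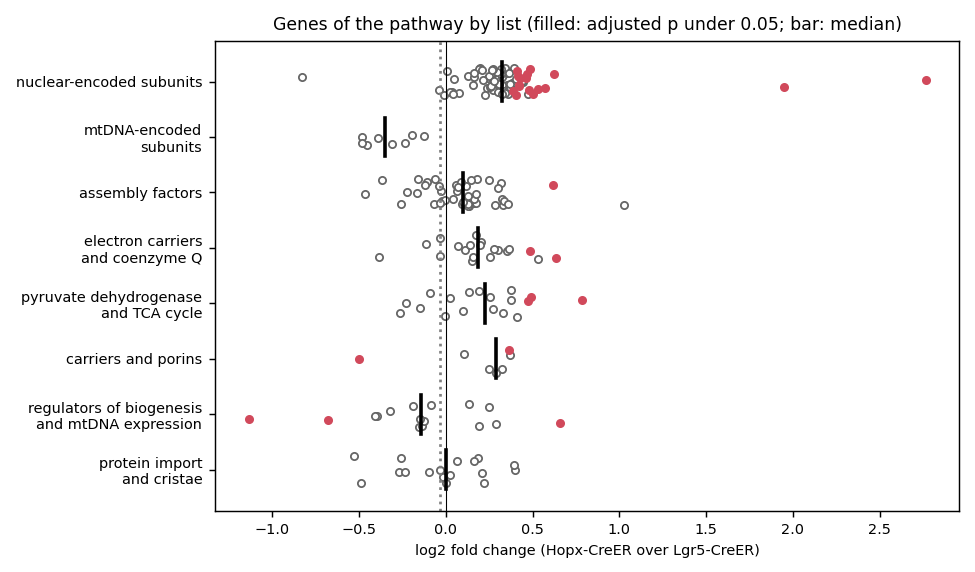
Log2 fold change of each tested gene, by list; filled points passed the edgeR test, thick bars are medians, and the dotted line is the median of all genes tested. The nuclear-encoded subunits gather around 0.32, the mtDNA-encoded ones around -0.35, and the remaining lists have medians from -0.14 to 0.29.

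Promoter windows were read from RefSeq (GRCm38.p6), 250 bases before to 50 after the most upstream listed start, and 66 members had one. Binding motifs of factors known to act on respiratory genes were searched as exact letters on both strands, and shares are over the 65 tested members and 9439 tested genes with a window. The NRF1 motif (GCGCA, any base, then GCGC) was in 24.6% of members and 10.8% of tested genes, the ERR motif NAAGGTCA in 12.3% and 3.22%, the YY1 motif AAGATGGC in 12.3% and 4.92%, and the ETS motif CCGGAAG in 23.1% and 19%. All 8 YY1 matches lay 22 to 38 bases after the start, while NRF1 matches were spread from -191 to 30. A match is a description of letters in the window, not of binding. The 8 members with an ERR match were Atp5e, Atp5g3, Atp5k, Atp5l, Ndufb2, Ndufb4, Ndufs5 and Sdhd. Of these, only Atp5g3 and Ndufs5 were called, and a link between motifs and calls was not tested. Atp5g3 is shown as a called member with an ERR match (in capitals, reverse strand, from 52 bases before the start; an NRF1 match 12 bases after it lies outside the stretch shown), and Cox7a1, whose window held none of the 4 motifs, for contrast. Both stretches begin 150 bases before the start and stop short of annotated exons, at chr2:73911327-73911476 (minus strand) and chr7:30184021-30184143 (plus strand).
Atp5g3: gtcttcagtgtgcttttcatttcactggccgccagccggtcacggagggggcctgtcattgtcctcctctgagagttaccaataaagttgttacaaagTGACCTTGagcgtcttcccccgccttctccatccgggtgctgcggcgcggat
Cox7a1: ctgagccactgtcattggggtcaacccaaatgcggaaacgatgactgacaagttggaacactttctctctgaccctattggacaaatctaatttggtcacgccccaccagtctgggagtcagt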

How the data were processed

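RNA sequencing was measured in 6 libraries. The authors deposited 1 table of raw counts, whole numbers without normalization for mouse Ensembl gene identifiers, per the file headers. The submitters' processing notes name kallisto, edgeR and GRCh38, without role or version. GRCh38 is a human build, so it cannot describe these mouse identifiers, and the counting settings are not given in the sources used here. Per the labels' protocols, cDNA was made with SMART-Seq v4 and libraries with Nextera XT, kits that keep no strand information.

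Symbols and positions came from GENCODE M21 (GRCm38), which matched 23479 of 23565 identifiers. The columns, all used, state the sorting gate and a number, but not the replicate, so libraries are numbered by column order. The name of Hopx-CreER library 3 alone adds a further tag, which the labels do not explain. Groups were compared with edgeR's quasi-likelihood test (edgeR 4.0.16, R 4.3.3), using TMM factors and filterByExpr at its defaults. P-values were adjusted by Benjamini-Hochberg over 12439 genes. The SE comes from the F statistic. Levels per kilobase use the shortest principal protein-coding transcript of a gene. Near-identical copies share at least 95% identity over at least 50% of that transcript (blastn). The procedure was tested on simulated data. Alternatives included DESeq2 1.42.0 and limma-voom (limma 3.58.1), other scalings and filters, spline offsets (5 degrees of freedom) for GC content or transcript length, and leaving out each library. Adding near-identical copies to their gene was chosen after seeing the data. The named genes are Hopx and Lgr5; in each complex, up to 6 called members in each direction, the member with the highest level per kilobase and the one with the largest change; all Sdh genes and the isoform families; and up to 3 genes from each list by smallest p. The members and lists were chosen with earlier results of these data known.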

Additional observations from a re-analysis of the deposited data

How the results depend on the processing

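No paired analysis was possible because the columns of the count table carry no number that ties them to the numbered samples. The CPM worth of 3 counts is a floor that covers counting error only, since amplified reads carry no molecular identifiers. The count of members higher in Hopx-CreER cells, 17, was 6 with library totals alone, 7 with upper quartile factors, 2 at a threshold of 0.01, 6 with length offsets, 2 when columns with a common number were summed, and 2 to 22 over the fits that left out 1 library. It was 12 with RLE factors, 13 with GC offsets, 19 with limma-voom and 20 with DESeq2, and 0 members were lower in each alternative. As shares, members against all genes tested were 7.59% against 7.54% with library totals and 8.86% against 8.78% with upper quartile factors. They were 7.59% against 9.5% with length offsets and 2.53% against 5.12% with the columns summed. With RLE factors, GC offsets, limma-voom and DESeq2 they were 15.2% against 9.41%, 16.5% against 9.7%, 24.1% against 9.08% and 25% against 6.7%. At a threshold of 0.01, 2 of 79 members and 555 of 12439 genes tested were higher. The medians stayed positive. With length offsets they were 0.163 over all members, 0.163 for complex I, 0.168 for complex III, 0.158 for complex IV and 0.184 for ATP synthase, and with library totals alone 0.23 for complex II and 0.209 for ATP synthase. Of the single genes, Sdha turned negative with library totals (-0.0936), upper quartile factors (-0.0215) and without Hopx-CreER library 1 (-0.0235) or Lgr5-CreER library 1 (-0.00302), and ranged from -0.0235 to 0.0494 over the fits without 1 library. Atp5g2 turned with library totals (-0.111), upper quartile factors (-0.0357), limma-voom (-0.0118), no filter (-0.00912), GC offsets (-0.183), length offsets (-0.152), summed columns (-0.00882) and without Hopx-CreER library 3 (-0.13) or Lgr5-CreER library 2 (-0.0756), and ranged from -0.13 to 0.0851 over the fits without 1 library. Over all genes, the 1176 higher and 410 lower calls were 659 and 131 with the columns summed, 555 and 99 at 0.01, and 606 to 1275 and 117 to 593 without 1 library. The lower calls were 729 with library totals, 713 with GC offsets and 670 with DESeq2. The call of Ndufs5 ended with its copy added. The cause of these moves was not tested.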
